A study of Mus musculus with 6 samples.

Results

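The perineuronal net and matrix genes described here were the 4 lecticans (*Acan*, *Bcan*, *Ncan* and *Vcan*), the 4 link protein genes *Hapln1* to *Hapln4* and the tenascins *Tnr* and *Tnc*. These 10 genes were chosen by family and found by gene name among 34632 loci measured in the mouse brainstem, 23985 of them with a name. Each had a single locus that carried no other gene name and overlapped the RefSeq gene of that name, and all 10 passed the filter on low counts. RNA-Seq was performed on 3 *Hoxa5* control libraries (*Hoxa5*flox/flox;CMV-CreERT2-/-) and 3 *Hoxa5* cKO libraries (*Hoxa5*flox/flox;CMV-CreERT2+/-), in mice of a mixed background that was mainly 129/Sv. All animals of both genotypes carried the floxed alleles and received tamoxifen from postnatal day (P) 1 to P4, and the brainstem was taken at P21. The Cre is driven by the CMV promoter and is not restricted to 1 cell type, and each library pooled the RNA of 3 brainstems. The comparison asked which transcripts differ when *Hoxa5*, a *Hox* transcription factor gene of the medulla and pons, is inactivated after birth.

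Lecticans are chondroitin sulfate proteoglycans that bind the long sugar hyaluronan at one end and tenascins at the other. Link proteins hold the lectican on hyaluronan, and tenascin-R, which forms trimers, ties lecticans to each other. Together they form the perineuronal nets around many fast-firing neurons, the looser matrix between cells and the matrix at nodes of Ranvier. Tenascin-C is a matrix protein of immature tissue that astrocytes and Bergmann glia produce during development.

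The libraries held 12034613 to 13202707 fragments. The *Hoxa5* locus, which also carries *Hoxa6* and 2700086A05Rik, did not follow the labels: controls 1 to 3 held 202, 337 and 77 of its fragments, and cKO libraries 1 to 3 held 279, 57 and 63. Genotypes are therefore given as labelled, and values without control replicate 3 and cKO replicate 1, the 2 libraries that went against their label, are given where a result changed. The library labelled cKO replicate 1 also held 3 fragments of 4 Y-linked genes, against 1069 to 1734 in the others. *Xist*, another sex-linked transcript, had 367, 373 and 341 CPM in controls and 544, 409 and 448 CPM in cKO libraries. It was called higher in cKO (log2 fold change 0.37, edgeR adjusted p = 0.0302). The genotypes thus differed in sex-linked transcripts, and the part of sex in the other differences was not tested. All 8 markers of brainstem neurons were detected, with a summed level of 544 to 575 CPM (fragments scaled to library size with TMM factors) in controls and 569 to 611 CPM in cKO libraries. Markers of cerebellar granule neurons were present as well and differed between the labelled genotypes, with a summed level of 327 to 629 CPM in controls and 123 to 157 CPM in cKO libraries, so that this sum parted all 6 libraries by label.

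*Tnc* was the only 1 of the 10 genes called different between the genotypes, at an adjusted p under 0.05 from edgeR, and it was lower in the libraries labelled cKO by 1.53-fold. Over all 21854 loci tested, 0.531% were called, 0.503% lower and 0.0275% higher. The other 9 genes were not called by edgeR or by DESeq2, which gave no adjusted p for *Hapln3*. Of these 9, 1 (*Hapln1*) had an unadjusted p under 0.05 from edgeR. With *Tnc* this makes 2 of the 10, beside 6.94% of all loci. The 10 genes had a median log2 fold change (cKO over control) of -0.01, beside 0.0034 over all loci tested. The 95% interval of the fold change lay within 1.5-fold in either direction for 8 of the 10 genes, and the remaining 2 were *Tnc* and the scarce *Hapln3*. In 2 of the 10 genes, *Tnc* and *Hapln1*, the CPM of the 2 genotypes did not overlap, beside 12.2% of all loci, and for *Tnc* the cKO libraries were the lower ones, beside 6.54%.

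**Figure D1:**
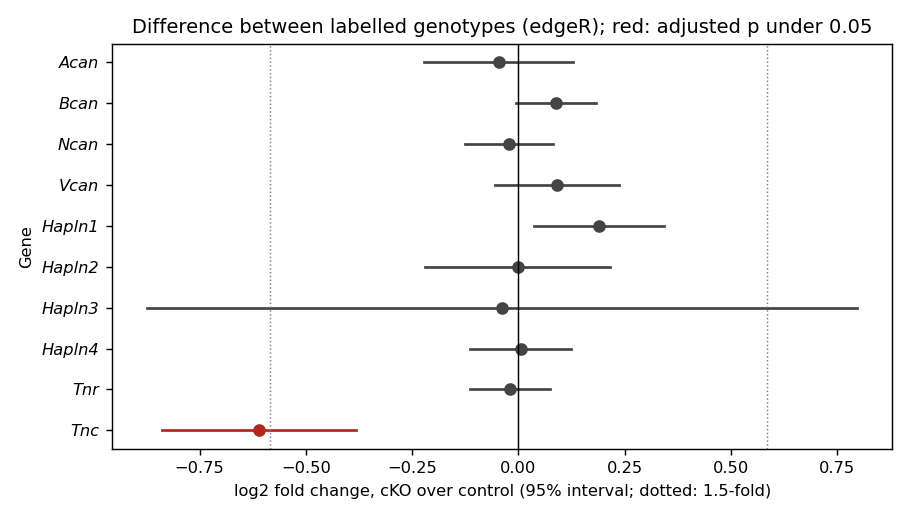
Log2 fold change of each gene (x axis, cKO over control, edgeR) with its 95% interval as a bar, and dotted lines at a 1.5-fold change. *Tnc* lies at -0.61 with an interval from -0.84 to -0.38, and the interval of *Hapln3* is the widest, from -0.87 to 0.80.

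The stretches of DNA just before a RefSeq start site of *Tnc* and of *Hapln1*, the 2 genes whose genotypes did not overlap, are shown here. They are the 250 bases before the RefSeq start site (GRCm38.p6, the same build as mm10), on the minus strand at chr4:64047016-64047265 for *Tnc* and on the plus strand at chr13:89540386-89540635 for *Hapln1*. Both start sites coincide with the ends of the loci in the authors' assembly. For *Tnc*, which had 2 entries, the site nearest to the end of the locus was taken, so this was partly by choice. The RefSeq gene of *Hapln1* begins at 89540529, so the last part of its stretch, with the marked match, lies within that gene. Capitals mark TAAT, the core that HOX homeodomains bind, read on either strand (ATTA on the other).
*Tnc*: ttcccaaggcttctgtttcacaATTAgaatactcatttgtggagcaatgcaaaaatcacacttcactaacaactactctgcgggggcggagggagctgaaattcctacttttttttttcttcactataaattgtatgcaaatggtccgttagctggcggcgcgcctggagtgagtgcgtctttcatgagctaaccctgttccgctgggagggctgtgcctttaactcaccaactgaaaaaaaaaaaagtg
*Hapln1*: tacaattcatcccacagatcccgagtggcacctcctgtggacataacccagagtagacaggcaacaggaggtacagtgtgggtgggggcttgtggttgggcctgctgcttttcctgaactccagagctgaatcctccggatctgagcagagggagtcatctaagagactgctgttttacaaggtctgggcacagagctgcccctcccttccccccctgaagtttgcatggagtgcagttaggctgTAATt
The *Tnc* stretch held 1 such match, 228 bases before the start, and the *Hapln1* stretch held 1, at 5 bases before it. A match was found in 5 of the 9 genes with an entry and in 54.9% of all 32851 stretches of that length, so these 4 letters are common. The longer TGATNNAT, a motif that HOX and PBX proteins bind together, was found on either strand in 0 of the 9 and in 7.68% of all stretches. A match is a description of the letters only.

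Levels can be compared between genes as FPKM, which takes the length of the transcript into account. *Bcan* stood first with a mean of 102 FPKM over the 6 libraries, 3.20-fold above the next gene, and its lowest library (95.8 FPKM) lay above the highest of any other gene. *Tnr* (31.8 FPKM), *Ncan* (29.4 FPKM), *Hapln4* (29.4 FPKM) and *Hapln2* (25.3 FPKM) followed, and neighbours in this order overlapped in range. *Vcan* (15.6 FPKM) and *Hapln1* (10.5 FPKM) came next, each apart from its neighbours in all 6 libraries. *Acan* (2.42 FPKM) and *Tnc* (2.23 FPKM) overlapped, with *Tnc* above *Acan* in 2 of 3 controls and in 0 of 3 cKO libraries. *Hapln3* was last with 0.604 FPKM. Brevican thus made up 66.3% to 69.1% of the summed FPKM of the lecticans in every library, followed by *Ncan* with 18.7% to 20.7%, *Vcan* with 9.08% to 11.6% and *Acan* with 1.49% to 1.71%. Of the summed FPKM of the link proteins, *Hapln4* made up 41.6% to 46.9%, *Hapln2* 35.2% to 43.4%, *Hapln1* 13.8% to 18.8% and *Hapln3* 0.472% to 1.38%. The family sums overlapped between genotypes. The lecticans summed to 145 ± 4.34 FPKM in controls and 153 ± 9.10 FPKM in cKO libraries, and the link proteins to 65.0 ± 4.44 FPKM and 66.4 ± 4.28 FPKM (SD, n = 3 each).

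**Figure D2:**
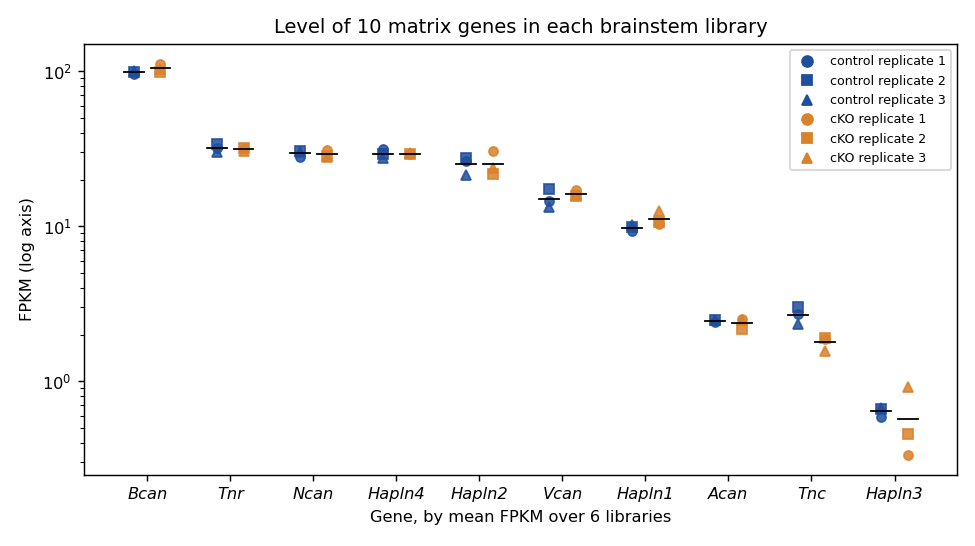
FPKM of each gene (y axis, log scale) in the 6 libraries, where colors show the genotype on the label, symbols the replicate and bars the mean of 3 libraries. *Bcan* lies at 95.8 FPKM or above in every library, and *Tnc* is lower in each cKO library than in each control.

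Among the tenascins, *Tnc* had 231, 242 and 222 fragments in controls and 155, 167 and 133 in the libraries labelled cKO. In CPM these were 18.9, 19.7 and 16.8 against 12.9, 12.8 and 10.5. Each control was thus higher than each cKO library. The locus lies on chromosome 4 from 63959785 to 64047015 (mm10, minus strand) with 4 assembled transcripts, which the table does not separate. The means were 18.5 ± 1.52 CPM and 12.1 ± 1.37 CPM (SD, n = 3 each). On the log2 scale the change was -0.61, with a standard error (SE) of 0.11 and an edgeR adjusted p = 0.0128. *Tnc* stayed lower in all 15 alternatives, with log2 fold changes from -0.73 to -0.41, and it was called in 10 of them (adjusted p from 8.43e-04 to 0.529). It was not called without control replicate 1 (0.0804), control replicate 2 (0.0628) or cKO replicate 3 (0.0633), nor by limma on FPKM (0.516 and 0.529). Without control replicate 3 and cKO replicate 1 the log2 fold change was -0.73 (edgeR adjusted p = 0.00482).

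*Tnr*, by contrast, had 386, 416 and 380 CPM in controls and 387, 393 and 386 CPM in cKO libraries, so that the genotypes overlapped. Its locus lies on chromosome 1 from 159523608 to 159932008 (plus strand). The log2 fold change was -0.02 (95% interval -0.11 to 0.08, edgeR adjusted p = 0.970). *Tnc* made up 7.15% to 8.18% of the summed FPKM of the tenascins in controls and 4.85% to 5.65% in cKO libraries.

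The fall of *Tnc* went along with lower levels of markers of cerebellar cells. Some of these markers are not confined to the cerebellum. The paper detected *Calb1* and *Itpr1*, of the Purkinje cell list, in nuclei of the brainstem by in situ hybridization. It also cites expression of *Gabra6*, of the granule neuron list, in some precerebellar nuclei. Of 8 markers of Bergmann glia, the radial astrocytes of the cerebellum, 3 were called lower (*Gdf10*, *Slc1a3* and *Hopx*), and the summed level of the 8 was 1002 to 1077 CPM in controls and 875 to 915 CPM in cKO libraries. Of 8 granule neuron markers 6 were called lower, with the sums given above, and of 8 Purkinje cell markers 6, with 664 to 1019 CPM and 406 to 487 CPM. These counts stand beside 0.503% of all loci called lower. Not every granule neuron marker fell: the highest log2 fold change of that list was 0.21, and 0 were called higher. The highest was -0.11 for Bergmann glia and -0.25 for Purkinje cells. None of these markers had a level of 0. Their part in the fall of *Tnc* was not tested. In RNA from whole tissue, fewer cells of a type, less RNA per cell and less cerebellar tissue in the dissected sample cannot be told apart. Of 8 astrocyte markers, 0 were called by edgeR (at its unadjusted p under 0.05, 1 was lower and 3 were higher), and their sum was 4937 to 5077 CPM in controls and 4967 to 5332 CPM in cKO libraries. Meningeal fibroblast markers summed to 259 to 432 CPM and 255 to 310 CPM, with *Mgp* of the 8 called, as higher, and a list median of -0.16 (at the unadjusted p under 0.05, 2 were lower and 1 was higher). Markers of endothelium and of microglia, 6 each, held 0 calls by edgeR, with 1 and 0 at an unadjusted p under 0.05.

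**Figure D3:**
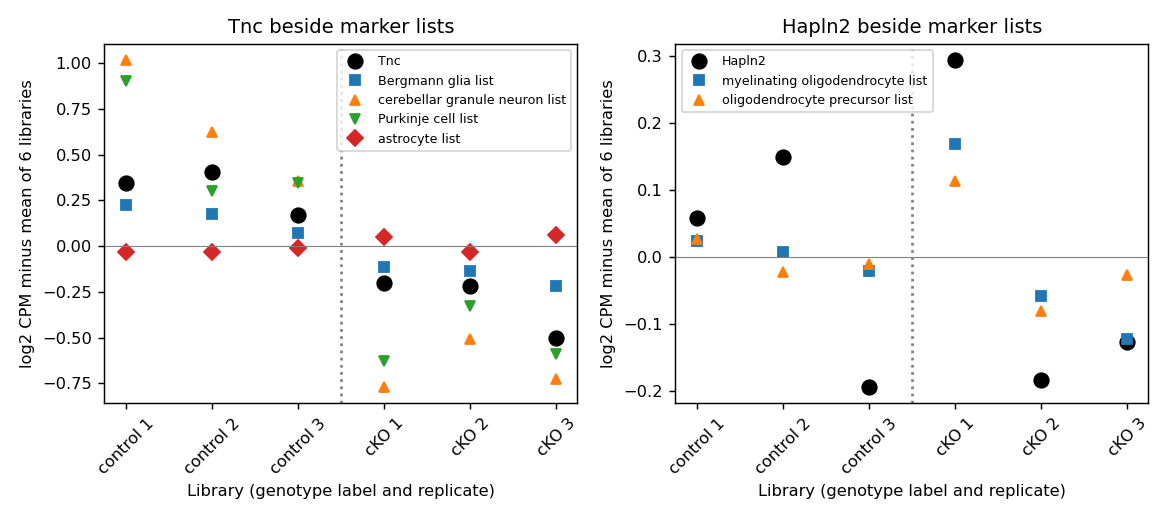
Log2 CPM of *Tnc* (left) and *Hapln2* (right) in each library minus the mean of 6 libraries (y axis), beside the mean of lists of marker genes, 1 symbol per library (x axis). *Tnc* and the lists of Bergmann glia, granule neurons and Purkinje cells lie above 0 in the 3 controls and below 0 in the 3 cKO libraries, while the astrocyte list stays near 0.

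The loci nearest to *Tnc* in pattern were found by the root mean square difference of log2 CPM, centred on the mean of the 6 libraries, over 11610 loci with 1 name and at least 5 CPM. The median difference was 0.332. *Chn2*, which encodes a chimaerin that acts on the small GTPase Rac, came first (0.0788), with a log2 fold change of -0.55 (SE 0.08, edgeR adjusted p = 0.00160). The sialyltransferase gene *St8sia5* (0.0990, log2 fold change -0.53) and the ETS transcription factor gene *Etv1* (0.108, log2 fold change -0.56) were called lower too. *Polh*, a DNA polymerase gene (0.103, log2 fold change -0.45), was not called, nor was a locus named *Igf2r* (0.0905, log2 fold change -0.46) that lies on the opposite strand within this gene and overlaps *Airn*. This likeness over 6 libraries includes the difference between the genotypes itself.

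Among the lecticans no gene was called, and the levels were close between libraries. *Acan* encodes aggrecan, the proteoglycan most tied to perineuronal nets, and lies on chromosome 7 from 79053483 to 79115099 (plus strand). It had 22.6, 23.1 and 23.3 CPM in controls and 23.3, 20.3 and 23.2 CPM in cKO libraries, a log2 fold change of -0.05 (95% interval -0.22 to 0.13, edgeR adjusted p = 0.958). The genotypes overlapped, and 5 of the 6 libraries lay within 22.6 to 23.3 CPM. *Bcan* encodes brevican, which glia and neurons of the mature brain make, and lies on chromosome 3 from 87987398 to 88000885 (minus strand). It had 295, 300 and 308 CPM in controls and 332, 308 and 320 CPM in cKO libraries, a log2 fold change of 0.09 (95% interval -0.01 to 0.18, edgeR adjusted p = 0.769). The highest control and the lowest cKO library were alike.

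*Ncan* encodes neurocan, a lectican that is most abundant in the developing brain. The locus, on chromosome 8 from 70092977 to 70120844 (minus strand), had 223 to 241 CPM in controls and 223 to 242 CPM in cKO libraries. The ranges were nearly identical, with a log2 fold change of -0.02 (95% interval -0.13 to 0.08). *Vcan* encodes versican, which cells of the oligodendrocyte lineage also make, on chromosome 13 from 89655310 to 89742622 (minus strand). It was the lectican that varied most among controls, with 110, 130 and 104 CPM, a coefficient of variation of 11.7%, beside 1.47% for *Acan*. In cKO libraries it had 128, 116 and 123 CPM, within that range, and the log2 fold change was 0.09 (95% interval -0.05 to 0.24). Versican exists in splice forms of very different length, and 10 transcripts were assembled on the locus, so its FPKM rests on the authors' model of them.

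Of the link protein genes, *Hapln1* showed the largest difference, without passing the test. *Hapln1* encodes the link protein of cartilage and of perineuronal nets, on chromosome 13 from 89540636 to 89611858 (plus strand). It had 41.8, 44.6 and 45.8 CPM in controls and 48.0, 47.0 and 55.8 CPM in cKO libraries. Each cKO library lay above each control, but cKO replicate 2 exceeded control replicate 3 only slightly. The log2 fold change was 0.19 (SE 0.07, 95% interval 0.04 to 0.34, edgeR adjusted p = 0.561, with 0.250 to 1.00 over the alternatives). It was 0.11 without cKO replicate 3.

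*Hapln2*, whose product sits at nodes of Ranvier of myelinated axons, parted the libraries in a way that did not follow the labels. The locus, on chromosome 3 from 88020492 to 88027511 (minus strand), had 26.5, 27.7 and 21.4 FPKM in controls and 30.6, 21.8 and 23.6 FPKM in cKO libraries. The 3 libraries with the lowest level were control replicate 3 and cKO replicates 2 and 3, which are also the 3 with few fragments of the *Hoxa5* locus. The log2 fold change was -0.0021 with all libraries (95% interval -0.22 to 0.22) and -0.26 without control replicate 3 and cKO replicate 1 (edgeR adjusted p = 0.0872). Of 8 markers of myelinating oligodendrocytes and 7 of their precursors, 0 were called by edgeR, with 0 and 1 at an unadjusted p under 0.05. The sum of the myelinating markers was 29465, 29549 and 28743 CPM in controls and 32444, 28704 and 26747 CPM in cKO libraries. It was thus lowest in the same 3 libraries as *Hapln2*, and highest in cKO replicate 1, where *Hapln2* was highest too. This split was seen with the values in view, and the share of all loci that part the libraries in this way was not computed. Whether these move together for a shared reason was not tested.

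*Hapln4*, the brain link protein of nets in the brainstem and cerebellum, had 106, 96.7 and 92.6 CPM in controls and 97.3, 99.9 and 99.4 CPM in cKO libraries. The cKO libraries lay within the range of the controls, and the log2 fold change was 0.0055 (95% interval -0.11 to 0.12). The locus is on chromosome 8 from 70083271 to 70090950 (plus strand). *Hapln3*, on chromosome 7 from 79116345 to 79131018 (minus strand), had 10, 13 and 14 fragments in controls and 7, 10 and 19 in cKO libraries. At this depth its 95% interval spans a log2 fold change of -0.87 to 0.80, from a fall to 0.546 of the control level to a rise of 1.74-fold. Changes within these bounds are not excluded for *Hapln3*, and the smallest change that could have been called was not computed.

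Each lectican gene lies next to a link protein gene, with no named locus between them. *Acan* and *Hapln3* are 1245 bases apart, *Ncan* and *Hapln4* 2026 bases and *Vcan* and *Hapln1* 43451 bases, and these 3 pairs are transcribed towards each other. *Bcan* and *Hapln2* are 19606 bases apart on the same strand. The levels of neighbours differed in 3 of the 4 pairs. *Bcan* was 4.02-fold above *Hapln2* in mean FPKM and *Acan* 4.01-fold above *Hapln3*, *Vcan* was 1.49-fold above *Hapln1*, and *Ncan* and *Hapln4* were at the same level (ratio 1.00). With log2 fold changes of 0.09 and 0.19, *Vcan* and *Hapln1* were the pair with the highest values, and neither was called.

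**Figure D4:**
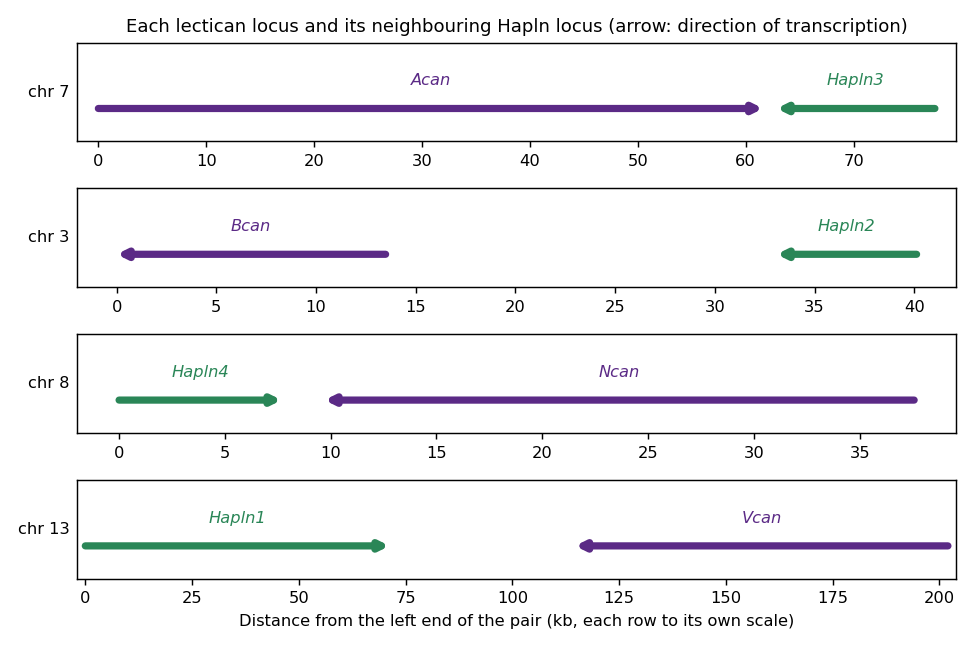
Each lectican locus and its neighbouring link protein locus, drawn as arrows in the direction of transcription against distance in kb (x axis, each row to its own scale). In 3 rows the arrows point at each other, and *Bcan* and *Hapln2* point the same way.

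Beyond the 10 genes, 2 of 110 tested loci in 6 lists of genes around the nets were called, both lower in the libraries labelled cKO, beside 0.503% of all loci called lower. The counts at an unadjusted p under 0.05 given for these lists stand beside 6.94% of all loci. Of the matrix proteases and their inhibitors, 1 of 18 was called lower: *Mmp24*, a membrane-bound metalloproteinase of the brain, had 58.7, 51.3 and 51.5 CPM in controls and 38.1, 46.2 and 39.6 CPM in cKO libraries. Each control exceeded each cKO library, with a log2 fold change of -0.38 (SE 0.08, edgeR adjusted p = 0.0343). The call was lost without control replicate 1 (0.297), control replicate 2 (0.0543), cKO replicate 1 (0.0632) or cKO replicate 3 (0.140), and without control replicate 3 and cKO replicate 1 together (0.0696), with 0.00237 to 0.510 over all alternatives. Among the ADAMTS proteases, 5 that cut lecticans (*Adamts1*, *Adamts4*, *Adamts5*, *Adamts9* and *Adamts15*) were not called. Their log2 fold changes ran from -0.22 to 0.01, with a smallest edgeR adjusted p of 0.405. The lowest was that of *Adamts1*, whose cKO libraries all lay below the controls, beside 6.54% of all loci. *Adamts8* and *Adamts20* were not called either (log2 fold changes 0.0019 and 0.0041). The median of the list was -0.02. At an unadjusted p under 0.05 from edgeR there were 2 lower loci, *Mmp24* and *Adamts1*, and 1 higher.

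Of the receptors and binding partners of lecticans and tenascins, 1 of 21 was called lower, with a list median of 0.0021. This was *Nptx1*, a neuronal pentraxin that binds glutamate receptors at synapses. Whether its product binds lecticans or tenascins was not tested. *Nptx1* had 141, 125 and 126 CPM in controls and 97.7, 110 and 112 CPM in cKO libraries, without overlap. The log2 fold change was -0.29 (SE 0.06, edgeR adjusted p = 0.0483), and the call was lost on leaving out any 1 library (0.0505 to 0.450), without control replicate 3 and cKO replicate 1 together (0.0807) and in other alternatives, with 0.00490 to 0.486 over all of them.

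The remaining 4 lists held no called gene by edgeR or DESeq2. For chondroitin sulfate synthesis the median of 21 loci was 0.02, and at an unadjusted p under 0.05 there was 1 lower locus and 0 higher. The 3 genes with the smallest p were *Ust*, a sulfotransferase gene (-0.21, edgeR adjusted p = 0.309), *Xylt1*, which starts the sugar chain (0.12), and *Chst7* (-0.69, at a mean of 1.24 CPM in controls and 0.768 CPM in cKO libraries). For hyaluronan synthesis, turnover and receptors the median of 12 loci was -0.0043, with 1 lower and 1 higher at that p. *Cemip*, found under its older name 9930013L23Rik and needed to break hyaluronan down, had a log2 fold change of -0.30 (edgeR adjusted p = 0.322). *Tmem2* had 0.14 and *Lyve1* -0.47. *Lyve1* was scarce, at a mean of 2.06 CPM in controls and 1.48 CPM in cKO libraries, and its genotypes overlapped.

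For other proteoglycans and tenascins the median of 25 loci was 0.02, and at an unadjusted p under 0.05 there was 1 lower locus and 2 higher. The syndecan gene *Sdc4* (0.16), the glypican gene *Gpc5* (0.13) and *Sdc1* (-0.47) had the smallest p. The genes of fast-firing neurons, which often carry nets, had a median of 0.04 over 13 loci, with 1 lower and 0 higher at that p. This 1 was *Pvalb*, which encodes the calcium buffer parvalbumin and is also a Purkinje cell marker. It had 93.5, 80.6 and 82.8 CPM in controls and 75.5, 70.7 and 70.4 CPM in cKO libraries, a log2 fold change of -0.25 (SE 0.06, edgeR adjusted p = 0.120, with 0.0455 to 0.825 over the alternatives). The potassium channel gene *Kcnc1* (-0.10) and the sodium channel gene *Scn1a* (0.06) followed.

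**Figure D5:**
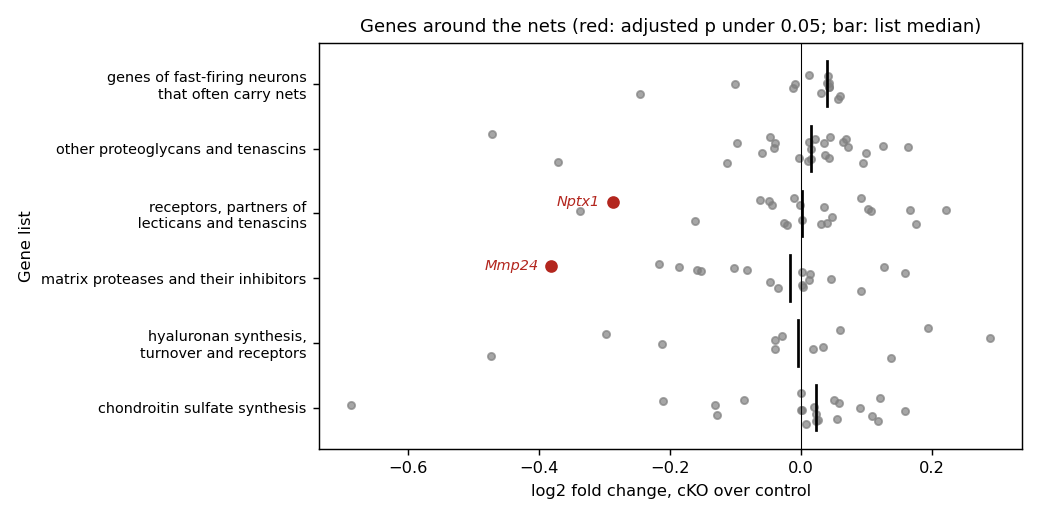
Log2 fold change (x axis, cKO over control) of each tested locus of 6 gene lists (y axis), with black bars at list medians and red for an adjusted p under 0.05. The medians lie between -0.02 and 0.04, and *Mmp24* and *Nptx1* are the called loci.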

How the data were processed

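Libraries were prepared by the authors with a stranded total RNA kit after ribosomal RNA depletion, from pools of 3 brainstems, and sequenced in pairs of reads. Per the labels, bases were called with CASAVA 1.6, reads were aligned to mm10 with TopHat2 2.0.9, transcripts were assembled and merged with Cufflinks 2.2.0, and loci were quantified with Cuffdiff. The table deposited by the authors gives fragments per locus as whole counts, and FPKM after scaling between libraries by Cuffdiff. Whether the counting used strand is not given in the sources used here. A further 2 columns of scaled fragments were not used. Libraries were taken to a genotype by the condition in the table. Its replicate numbers, here counted from 1, serve as names and are not tied to the pools of the labels, and p-values measure the spread between pools.

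Counts were filtered with filterByExpr, normalized by TMM and compared with edgeR 4.0.16 (quasi-likelihood test, Benjamini-Hochberg over 21854 loci, threshold 0.05) in R 4.3.3. Standard errors and 95% intervals, unadjusted, were derived from the F statistic. The common coefficient of biological variation was 0.0552, and no interval is given for counting error apart from it. The members and lists were chosen with earlier results of these data known. Named are the 10 members, the called genes of each list or else the 3 with the smallest p, and the 5 loci nearest to each called member. The ADAMTS genes and the markers named lie outside this rule and were picked with values in view. The alternatives were DESeq2 1.42.0, limma 3.58.1 on log2(FPKM + 1) and log2(FPKM + 0.1) for loci with at least 1 FPKM in 3 libraries, library size alone, upper-quartile factors, no filter, at least 50 fragments in 3 libraries, the replicate number as a block, each library left out, and 2 libraries left out together. The steps were also run on simulated counts drawn with a common spread for all loci. That run is not used as support for the calls given here. Upstream sequences came from RefSeq, and *Hapln4* had no entry.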

Additional observations from a re-analysis of the deposited data

How the results depend on the processing

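Over all loci, 116 were called. The number was 0 by limma on log2(FPKM + 1), with 1298 at an unadjusted p under 0.05, 1 on log2(FPKM + 0.1), 221 without a filter, 76 with at least 50 fragments in 3 libraries, 44 to 126 with 1 library left out and 161 without control replicate 3 and cKO replicate 1. It was 44 without control replicate 1 and 65 without cKO replicate 3. Of the 10 genes, 1 (*Tnc*) was called, and 0 by limma on either FPKM scale; with 1 library left out the number was 0 to 1, with 0 without control replicate 1, control replicate 2 or cKO replicate 3. The cause of these losses was not tested. *Mmp24* was lost in both limma fits and with at least 50 fragments, *Nptx1* in these and with upper-quartile factors, and *Pvalb* was called without a filter, so that the fast-firing list then held 1 call. The fold change of *Tnc*, *Bcan* and *Hapln1* kept its direction in every alternative. The direction changed for 7 genes that were not called, and most of these values lay near 0, apart from those of *Hapln3* and *Hapln2*. The log2 fold change of *Hapln2* was 0.010 with upper-quartile factors, 8.32e-05 by limma on log2(FPKM + 1) and 0.0036 with at least 50 fragments in 3 libraries. With 1 library left out it ran from -0.16 to 0.091 for *Hapln2*, -0.079 to 0.021 for *Acan*, -0.059 to 0.0012 for *Ncan*, 0.02 to 0.19 for *Vcan*, -0.52 to 0.20 for *Hapln3*, -0.042 to 0.064 for *Hapln4* and -0.049 to 0.021 for *Tnr*. Without control replicate 3 and cKO replicate 1 it was -0.26 for *Hapln2*, -0.0087 for *Vcan*, -0.03 for *Hapln4* and 0.26 for *Hapln3*. *Hapln3* could not be fitted by limma or under the filter of 50 fragments, which it did not pass, and its 7 to 19 fragments limit its precision. DESeq2 gave *Hapln3* a fold change without an adjusted p.

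With the replicate number as a block, 130 loci were called, with *Tnc* among them (log2 fold change -0.61, edgeR adjusted p = 0.00613), and *Nptx1* was not (0.0624). Deviations of libraries with the same number had correlations over loci of 0.05, -0.19 and 0.03, beside -0.13 to 0.15 for libraries with different numbers. The numbers are not tied to pools, so these values cannot show whether control and cKO pools were related. The paper describes the controls as littermates of the cKO pups, and which pools shared litters is not given in the sources used here.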
